A study of Homo sapiens with 95 samples.

Results

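The collagen chain genes encode the alpha chains from which every collagen is built. All gene symbols made of COL, a type number, A and a chain number were taken from the count files, except COL17A1, which encodes a transmembrane collagen of hemidesmosomes and was not included. This left 43 genes of the 27978 symbols counted. Expression was measured by sparse full length (SFL) RNA-seq, a low-cost method in which ribosomal RNA is depleted, many barcoded libraries are sequenced together and reads come from the whole length of a transcript. AALE is an established cell line, made by immortalizing epithelial cells of the human bronchus, and its cells carried 6 gene perturbations or a control construct. FAT1 and CDKN2A were knocked out with CRISPR, and their control (GFP) received the pSpCas9-EGFP plasmid without a guide. NRF2 (NFE2L2), FGFR1, NRG1 and PIK3CA were overexpressed, and their control (HCRED) carried an empty vector with the HcRed reporter. Each of the 8 lines was exposed to cigarette smoke condensate (CSC, 24 µg/ml), benzo[a]pyrene (BaP, 173 µM), the tobacco nitrosamine NNK (490 µM) or DMSO. There were 3 samples for 31 of the 32 combinations and 2 for the FGFR1 line with CSC, 95 in all. The chemicals were each used at 1 dose, so they are described side by side and not compared with each other. The study calls the samples of a combination biological replicates, and the labels do not say whether they came from separate cultures, so p-values measure only the spread between these samples, which may be technical.

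Counted reads ranged from 287446 to 2116383 per library, and 19 libraries, none of them treated with DMSO, held fewer than 600000. Over the 95 libraries 3 reads correspond to between 1.47 and 9.84 CPM (counts scaled to the TMM-normalized library total), which is the limit for a gene at 0. The targeted genes moved with the labels: median FAT1 was 390 CPM in the GFP line and 102 in the FAT1 line, CDKN2A was 104 and 49.3, and the 4 overexpressed genes were higher in their own lines than in HCRED. All 8 markers of basal airway epithelium had reads in every library, with a summed level of 3745 to 11474 CPM. The 8 fibroblast markers summed to 8.01 to 50.4 CPM, and FBLN1 carried most of it (mean count 19.9), while PDGFRA, PDGFRB, LUM, POSTN and FAP had mean counts of at most 0.337. Smooth muscle markers summed to 1.59 to 27.7 CPM, endothelial markers to at most 6.26 and white blood cell markers to at most 37.6, which was mostly CD68, and CD3E was listed at 0. In 5 libraries of other lines more than 100 reads of NRG1 were counted, and 3 libraries, 1 from HCRED with DMSO and the 2 from FGFR1 with CSC, correlated best on average with another line. Where a call was lost without these libraries, this is stated. Calls gained without them are not named, as in NRF2, where 12 members passed without the 5 libraries and 11 with them. Bulk RNA cannot tell fewer cells of a type from less RNA per cell.

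A library property moved with the chemicals and is given here because many results depend on it. The GC trend of a library was measured as the mean log2 deviation of genes above 60% GC minus that of genes below 45% GC. It was -0.98 to -0.25, median -0.50, in DMSO libraries, and had medians of 0.21 with CSC, 0.21 with BaP and 0.16 with NNK, with lowest values of -0.059, -0.25 and -0.14. The DMSO libraries thus did not overlap with the treated ones, although the highest DMSO and the lowest BaP library lay close together. The median of a line ranged from -0.070 (GFP) to 0.24 (NRF2). The main chemical results are therefore given as counted and after a correction of each library for GC content and transcript length.

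Collagens are trimers of alpha chains that are hydroxylated and folded in the endoplasmic reticulum, secreted and, in most types, crosslinked outside the cell. Fibrillar collagens form the fibres of the stroma and are made chiefly by fibroblasts. Collagen IV forms the sheet of the basement membrane on which epithelial cells sit, and collagen VII forms the anchoring fibrils that tie it to the stroma below. FACIT collagens decorate the surface of fibrils, and the multiplexin collagen XVIII is a proteoglycan of basement membranes.

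In AALE cells the basement membrane and anchoring fibril chains made up most of the collagen reads. COL7A1, the single chain of collagen VII, had a mean count of 551 and took 40.7% of all member reads. Together with the 6 collagen IV genes it took 81.8%. Members took 0.101% to 0.227% of all counted reads in a library, median 0.142%. On a scale comparable between genes, the median level was 61.6 CPM per kilobase of transcript for COL7A1, 42.2 for COL4A2, 17.6 for COL4A1, 17.5 for COL4A5, 12.9 for COL16A1, 9.19 for COL4A6, 5.67 for COL12A1, 4.81 for COL18A1 and 4.26 for COL1A1. These 9 genes with COL4A4 and COL27A1 were the 11 members whose mean count reached 10 or more, and held 96.2% of the member reads. The ranges of neighbours in this order overlapped: COL4A1 ran from 5.94 to 31.4 CPM per kilobase over the 95 samples and COL4A5 from 10.4 to 38.4.

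**Figure D1:**
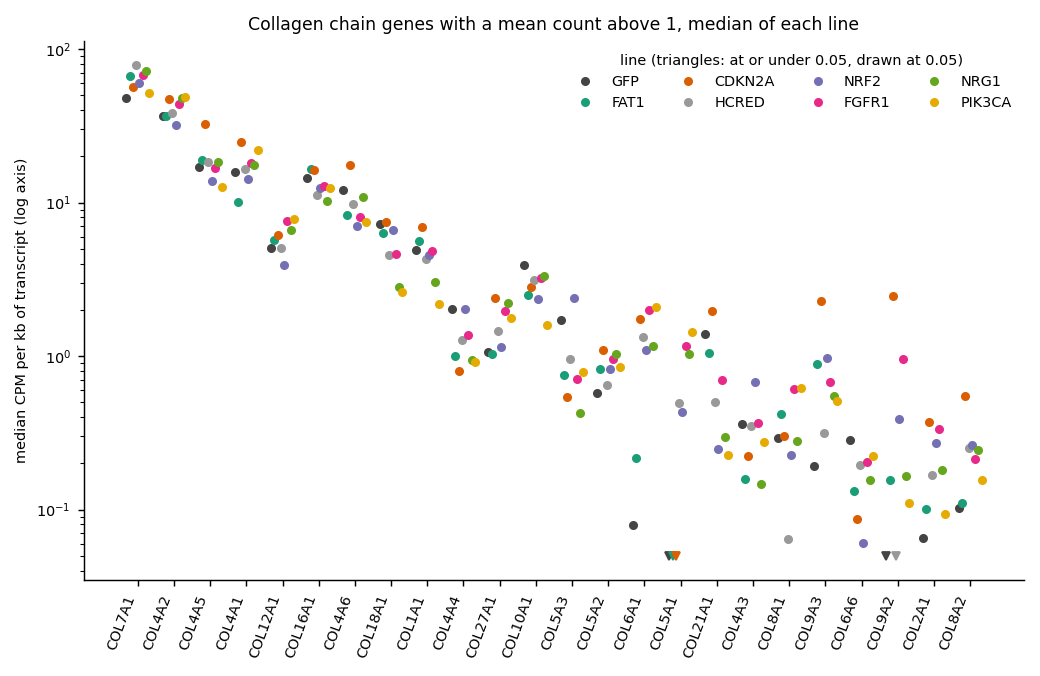
Median CPM per kilobase of transcript (log axis) in each of the 8 lines for the 24 collagen chain genes with a mean count above 1, ordered by mean count. COL7A1 and COL4A2 had the highest medians in each line. The lines are widest apart at COL5A1, COL6A1 and COL9A2 on the right, and some medians of COL5A1 and COL9A2 were at 0 (triangles).

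A further 13 members had mean counts between 1 and 10, from COL10A1 (8.88) through COL5A3 (6.0), COL5A2 (5.83), COL6A1 (5.05), COL5A1 (4.80), COL21A1 (3.58), COL4A3 (2.58), COL8A1 (2.27), COL9A3 (2.14), COL6A6 (1.87), COL9A2 (1.72) and COL2A1 (1.36) to COL8A2 (1.26). The remaining 19 had a mean count of at most 1. COL9A1 was listed at 0 in all 95 samples. COL6A5, COL11A1, COL11A2, COL22A1 and COL25A1 never exceeded 1 read, COL3A1, COL15A1, COL20A1, COL23A1 and COL26A1 never exceeded 2, and COL1A2 and COL28A1 never exceeded 3. The highest counts of COL13A1 and COL19A1 were 4, those of COL6A2, COL14A1 and COL24A1 were 5, and that of COL6A3 was 7. Some chains were counted with few or no reads of a chain they assemble with. COL1A1 had reads in all 95 samples (mean 24.2), whereas COL1A2, its partner in type I collagen, had reads in 15 (mean 0.263). COL9A2 and COL9A3 had reads in 56 and 75 samples and COL9A1 in none. COL6A1 had reads in 82 samples and COL6A2 in 34.

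The 6 collagen IV genes lie in 3 pairs that are read in opposite directions from neighbouring starts. In RefSeq (GRCh38.p14) the starts of COL4A2 and COL4A1 on chromosome 13 are 127 bases apart, those of COL4A3 and COL4A4 on chromosome 2 are 419 apart, and that of COL4A5 on the X chromosome is 380 or 1416 from the 2 listed starts of COL4A6. The stretch shared by COL4A1 and COL4A2 is shown because both genes moved in most comparisons, and the 250 bases before COL4A5 because it had the clearest line differences. Those before COL7A1 and COL12A1 are shown because one is the most abundant member and the other fell with every chemical. Capitals mark motif matches on either strand. The GC box was searched as GGGCGG and the box named for the letters CCAAT by those letters. The TATA box was searched as TATAAA. The CTC box, a motif known from the COL4A1 and COL4A2 promoter, was searched as CCCTCCCC.
COL4A1 and COL4A2, chr13:110307158-110307283, plus strand: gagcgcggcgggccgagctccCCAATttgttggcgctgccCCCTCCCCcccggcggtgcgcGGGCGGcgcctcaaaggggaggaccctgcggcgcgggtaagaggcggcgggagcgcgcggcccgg
COL4A5, chrX:108439588-108439837, plus strand: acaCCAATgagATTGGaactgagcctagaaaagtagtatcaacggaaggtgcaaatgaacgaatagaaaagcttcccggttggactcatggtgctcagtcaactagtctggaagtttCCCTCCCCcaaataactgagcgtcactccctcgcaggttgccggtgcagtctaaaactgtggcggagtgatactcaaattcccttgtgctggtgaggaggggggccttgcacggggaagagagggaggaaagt
COL7A1, chr3:48595330-48595579, minus strand: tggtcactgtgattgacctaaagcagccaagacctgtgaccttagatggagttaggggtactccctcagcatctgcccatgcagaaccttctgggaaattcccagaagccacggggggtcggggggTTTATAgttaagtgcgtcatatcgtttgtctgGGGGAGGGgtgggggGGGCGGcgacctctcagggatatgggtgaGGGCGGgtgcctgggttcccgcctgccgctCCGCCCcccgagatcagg
COL12A1, chr6:75206054-75206303, minus strand: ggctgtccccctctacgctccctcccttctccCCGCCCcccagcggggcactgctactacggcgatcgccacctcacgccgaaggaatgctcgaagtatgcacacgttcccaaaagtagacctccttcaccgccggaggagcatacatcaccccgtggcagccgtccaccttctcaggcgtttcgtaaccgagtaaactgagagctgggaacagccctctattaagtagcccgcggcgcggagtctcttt

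These 4 stretches differed in base composition. GC made up 80.2% of the 126 bases between COL4A2 and COL4A1, 51.2% before COL4A5, 60.8% before COL7A1 and 61.2% before COL12A1, against a median of 58.0% over the 35116 RefSeq promoters. The COL4A1 and COL4A2 stretch held 1 GC box, 1 CCAAT box and 1 CTC box. COL4A5 held 2 CCAAT boxes and 1 CTC box, and COL12A1 held 1 GC box. COL7A1 held 3 GC boxes, 1 CTC box and 1 match to the TATA letters. That match reads TTTATA on the printed strand, so it lies on the opposite strand, and whether it acts as a TATA box was not tested. In the 250 bases before the starts of all promoters, 42.6% held a GC box, 32.01% a CCAAT box, 10.7% a TATA box and 12.7% a CTC box. Among the 43 starts listed for the 31 members found in that table, 24, 11, 7 and 11 did.

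Each line was compared with its control over the 4 treatments, which asks whether the perturbed gene goes with a different collagen make-up whatever the chemical. With limma-voom, treatment as a term and an adjusted p under 0.05 over all genes tested, 13 of the 20 members tested differed in the FAT1 line (4 higher, 9 lower, where 48.8% of all genes tested differed) and 16 of 24 in the CDKN2A line (13 higher, 3 lower, 57.7% of all genes). Against HCRED the numbers were 11 of 24 for NRF2 (5 higher, 6 lower, 21.7% of all genes), 7 of 25 for FGFR1 (6 higher, 1 lower, 13.4%), 7 of 24 for NRG1 (5 higher, 2 lower, 10.8%) and 12 of 24 for PIK3CA (6 higher, 6 lower, 27.8%). Of the members that differed, 3 of 16 in CDKN2A (COL6A1, COL9A2 and COL9A3) and 1 of 7 in FGFR1 (COL9A2) had a mean count above the filter of 1 in the higher line alone, so their reads are given below as a description. Nothing particular to the collagen chains is read from these shares. The median member log2 fold change was 0.46 in the CDKN2A and -0.46 in the PIK3CA line, against 0.00 and -0.01 over all genes tested. It lay between -0.08 and 0.19 in the other 4 lines. By treatment the PIK3CA median was 0.002 with DMSO, 0.064 with CSC, -0.25 with BaP and -0.53 with NNK. The pooled value thus did not hold in every treatment. The CDKN2A medians in the same order were 0.64, 0.31, 0.58 and 0.51, and the pooled value includes COL6A1, COL9A2 and COL9A3. Within single treatments, 106 of 533 member tests passed (58 higher, 48 lower, 12.2% of all gene tests). Without the samples numbered 1 the count was 8 in FAT1, 4 in FGFR1 and 2 in NRG1, and without those numbered 2 it was 8, 2 and 2. No share of all genes was set beside these counts, and nothing about the members is read from them.

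**Figure D2:**
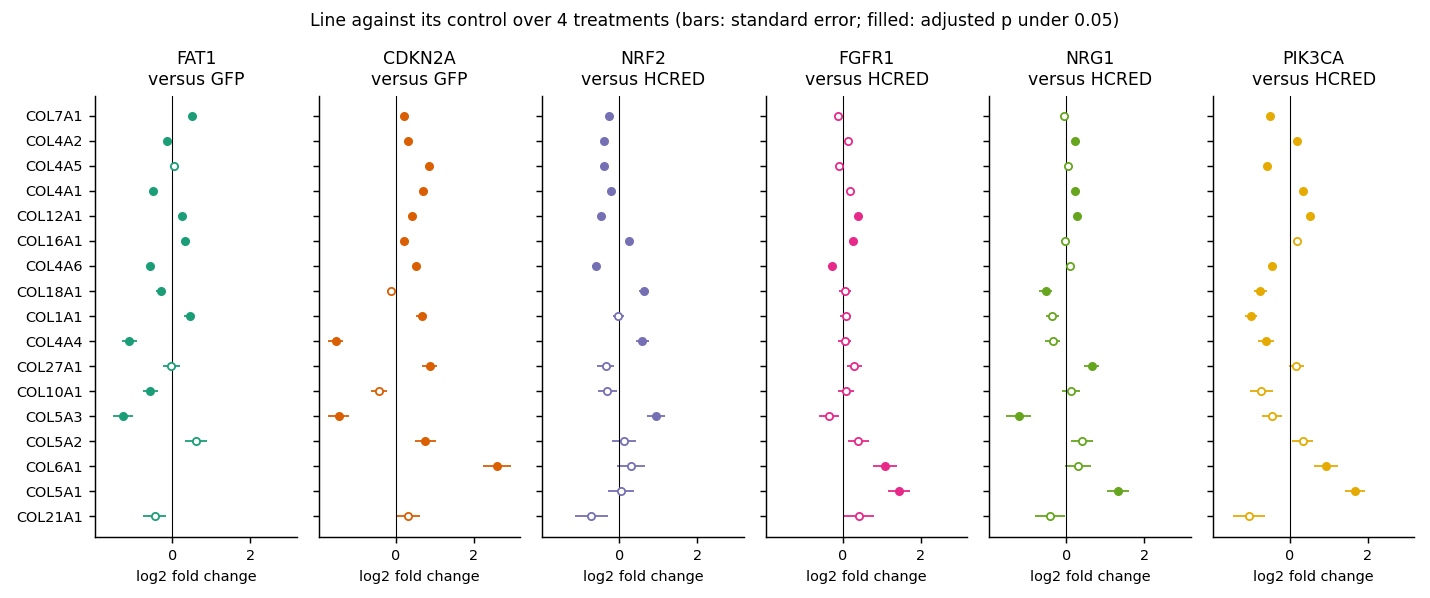
Log2 fold change (horizontal axis) of each line against its control over 4 treatments for the 17 members with the highest mean counts, with standard errors and with filled points for an adjusted p under 0.05. Collagen IV genes lay mostly to the right in the CDKN2A line and to the left in the FAT1 line, and COL5A1 lay to the right with FGFR1, NRG1 and PIK3CA. COL4A4 is an exception in the CDKN2A panel (-1.54), and COL4A5 in the FAT1 panel is an open point near 0.

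The collagen IV chains COL4A1 and COL4A2, which form the most widespread network, were higher in the CDKN2A line. COL4A1 (chromosome 13, 110801310 to 110959504, hg19, minus strand) was 80.1 to 137 CPM, median 104, in the GFP line and 135 to 205, median 163, in the CDKN2A line, so that the highest GFP and the lowest CDKN2A sample overlapped slightly. The log2 fold change was 0.70 (SE 0.065, adjusted p = 6.83e-15), and the difference passed within each of the 4 treatments. COL4A2 (110958159 to 111165556, plus strand) rose by 0.33 (SE 0.051, adjusted p = 1.14e-07). In the FAT1 line COL4A1 was 38.9 to 113 CPM, median 66.1, and was lower than in GFP by a log2 fold change of -0.49 (SE 0.081, adjusted p = 3.82e-07), while COL4A2 differed by only -0.14 (adjusted p = 0.045) and had nearly the same median, 235 against 236 CPM. In the NRF2 line COL4A2 (-0.38, SE 0.054) and COL4A1 (-0.22, SE 0.078) were both lower, and COL4A1 missed the threshold (adjusted p = 0.0575) without the HCRED library that resembled another line. In PIK3CA and NRG1 both were higher, COL4A1 by 0.35 and 0.23 and COL4A2 by 0.20 and 0.23. The annotated spans of COL4A1 and COL4A2 overlap on opposite strands, and the sources used here do not say whether reads were counted by strand, so the pair may share some reads.

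COL4A5 and COL4A6, whose chains form a network of epithelial basement membranes, showed the clearest line differences among abundant members. COL4A5 (X chromosome, 107683068 to 107940775, plus strand) was 82.1 to 148 CPM in the 12 GFP samples and 167 to 251 in the 12 CDKN2A samples, medians 111 and 212, with no overlap. The log2 fold change was 0.86 (SE 0.062, adjusted p = 5.75e-20), and between 0.72 and 0.995 in the single treatments. With DMSO the 3 GFP samples were at 113, 128 and 105 CPM and the 3 CDKN2A samples at 217, 200 and 240. In the PIK3CA line COL4A5 was 67.9 to 98.1 CPM, below all HCRED samples (104 to 148), with a log2 fold change of -0.58 (SE 0.066, adjusted p = 2.03e-11). It was also lower in the NRF2 line (-0.40, SE 0.069, adjusted p = 4.48e-06), with a median of 89.8 CPM against 121. COL4A6 (107398837 to 107682727, minus strand) was higher in the CDKN2A line by 0.51 (SE 0.075), with a median of 117 CPM against 80.6, and lower in the FAT1 line by -0.57 (SE 0.090), the NRF2 line by -0.60 (SE 0.10), the PIK3CA line by -0.47 (SE 0.086) and the FGFR1 line by -0.27 (SE 0.095, adjusted p = 0.041).

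COL4A3 and COL4A4, the chains of the network best known from kidney and lung, had few reads. COL4A4 (chromosome 2, 227867430 to 228029169, minus strand) was 9.33 to 33.9 CPM in GFP, median 20.3, and 1.96 to 9.92 in the CDKN2A line, median 7.93, a log2 fold change of -1.54 (SE 0.20, adjusted p = 4.06e-10) opposite in sign to those of COL4A1, COL4A2, COL4A5 and COL4A6. It was also lower in the FAT1 line (-1.10, SE 0.20) and the PIK3CA line (-0.61, SE 0.20) and higher in the NRF2 line (0.59, SE 0.17). COL4A3 moved with it in FAT1 (-1.12, SE 0.38) and NRF2 (0.85, SE 0.28), with medians of only 1.27 and 5.43 CPM against 2.90 and 2.83 in their controls. Since FAT1 and CDKN2A share the GFP samples, it is given here that GFP itself lay above HCRED in COL4A4 by 0.62 (SE 0.17, adjusted p = 0.00144). The level of COL4A4 was highest in GFP and NRF2 (medians 20.3 and 20.3 CPM), followed by FGFR1 (13.6) and HCRED (12.6), which overlapped, and then FAT1 (9.95), NRG1 (9.41), PIK3CA (9.15) and CDKN2A (7.93), which overlapped as well.

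**Figure D3:**
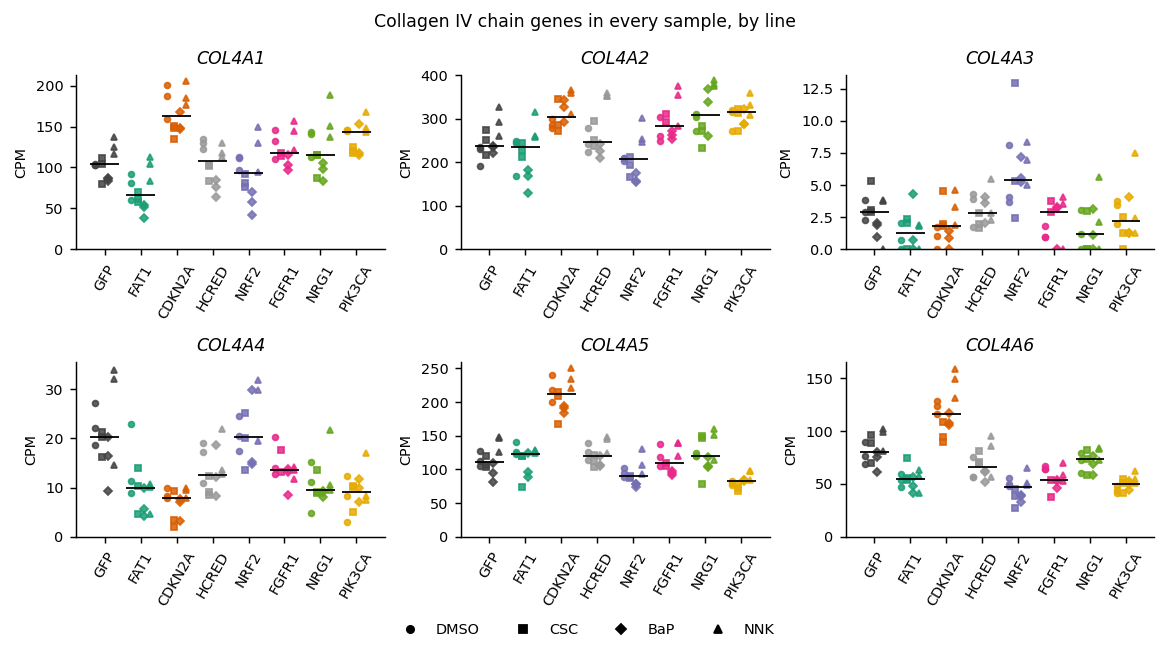
CPM (vertical axes from 0) of the 6 collagen IV genes in every sample by line, with a marker shape for each treatment and a bar at the median of a line. The CDKN2A samples of COL4A5 (167 CPM and above) sit above all samples of the other 7 lines, whereas for COL4A4 the CDKN2A median (7.93 CPM) is the lowest.

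The ratio of partner chains was examined after these values were seen, for COL4A1 with COL4A2 and COL4A5 with COL4A6 only. There were 20 tests by permutation within treatment or line (100000 permutations, Benjamini-Hochberg adjusted over the 20). The tests reuse the reads behind the calls above, so they are no independent support for those calls. The mean log2 ratio of COL4A5 to COL4A6 was 0.47 ± 0.25 (SD, n = 12) in GFP, 1.06 ± 0.33 in FAT1 (adjusted permutation p = 0.000733) and 0.82 ± 0.18 in CDKN2A (adjusted permutation p = 0.00429). On average COL4A6 was the smaller part of the pair in every line, and smaller in both knockouts than in GFP. GFP itself was below HCRED (0.83 ± 0.24, adjusted permutation p = 0.00429), and the overexpression lines had means from 0.71 (PIK3CA) to 1.03 (NRF2). The log2 ratio of COL4A1 to COL4A2 was -1.24 ± 0.26 in GFP, -0.90 ± 0.22 in CDKN2A (adjusted permutation p = 0.00415) and -1.61 ± 0.28 in FAT1 (adjusted permutation p = 0.00429), and the last missed the threshold after the GC correction (0.0815). None of the overexpression lines differed from HCRED in either ratio at the adjusted threshold (lowest adjusted permutation p 0.0802), which does not show that they were equal.

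COL7A1 (chromosome 3, 48601506 to 48632762, minus strand) was 299 to 690 CPM in GFP, median 446, and 504 to 954 in the FAT1 line, median 615. The log2 fold change was 0.52 (SE 0.047, adjusted p = 7.32e-16), and it passed in all 4 treatments. The difference for CDKN2A was 0.20 (SE 0.043, adjusted p = 3.99e-05) and fell to 0.02 (adjusted p = 0.704) after the GC correction. In HCRED COL7A1 ranged from 424 to 1048 CPM, median 724, and it was lower in the PIK3CA line, at 365 to 637 CPM, median 479 (-0.51, SE 0.048, adjusted p = 1.75e-14), and in the NRF2 line, median 554 (-0.26, SE 0.048, adjusted p = 2.34e-05). The controls differed from each other by as much: GFP was below HCRED by -0.60 (SE 0.040, adjusted p = 1.23e-22). The median of the FAT1 line therefore lay above GFP and below HCRED.

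The fibrillar chains were low, and COL5A1 divided the lines most sharply. COL5A1, a chain of the collagen V that starts fibril assembly, had 2, 2 and 5 reads in all in the 12 samples of GFP, FAT1 and CDKN2A. In the same number of HCRED samples it had 41, in NRF2 39, in NRG1 102 and in PIK3CA 155, and it had 110 in the 11 FGFR1 samples. By summed reads HCRED was 18.6 times GFP (95% exact interval 4.82 to 158, counting error only). Of these 2 controls COL5A1 had a mean count above 1 in HCRED alone, so this ratio is a description and no test. Against HCRED the log2 fold change was 1.67 in PIK3CA (SE 0.26, adjusted p = 1.64e-07), 1.43 in FGFR1 (SE 0.28, adjusted p = 7.66e-05) and 1.32 in NRG1 (SE 0.29, adjusted p = 0.000801). With DMSO the 3 PIK3CA samples held 12, 15 and 13 reads and the 3 HCRED samples 8, 3 and 5. COL5A3, another collagen V chain, ran differently: it was lower in FAT1 (-1.26, SE 0.25), CDKN2A (-1.47, SE 0.27) and NRG1 (-1.21, SE 0.32) and higher in NRF2 (0.94, SE 0.23), with medians of 10.6 CPM in GFP, 4.70 in FAT1, 3.36 in CDKN2A, 5.91 in HCRED, 2.66 in NRG1 and 14.8 in NRF2. COL5A2 passed in CDKN2A alone of the 6 lines (0.75, SE 0.27, adjusted p = 0.015).

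COL1A1, the main chain of type I collagen, was 4.72 to 17.8 CPM in the PIK3CA line, median 13.0, and 9.84 to 34.8 in HCRED, median 25.3 (log2 fold change -0.99, SE 0.16, adjusted p = 5.95e-07). It was higher in the CDKN2A line, median 41.1 CPM against 29.1 in GFP (0.67, SE 0.14, adjusted p = 3.83e-05), and in the FAT1 line (0.45, SE 0.14, adjusted p = 0.00607), where it missed the threshold after the GC correction (0.0666). The summed fibroblast markers had medians of 17.2 CPM in PIK3CA, 26.3 in HCRED, 20.8 in CDKN2A and 34.1 in GFP, and their part in these results was not tested. COL1A2 stayed at 0 to 3 reads in every library. COL27A1, a fibrillar chain of cartilage, was higher in the CDKN2A line (0.87, SE 0.20, median 18.7 against 8.26 CPM) and the NRG1 line (0.65, SE 0.18, median 17.4 against 11.4 CPM).

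COL9A2, a FACIT chain of cartilage, had 84 reads in the 12 CDKN2A samples, with at least 3 in each, and 6 in the 12 GFP samples, 7 of which had none. COL9A3 had 72 against 11 reads. As a description, the levels were 3.08 to 13.9 CPM against 0 to 2.56 for COL9A2 and 3.42 to 11.9 against 0 to 3.31 for COL9A3. COL9A2 had 23 reads in the 11 FGFR1 samples and 8 in the 12 HCRED samples, and its call did not hold with edgeR or DESeq2. Since its mean count was above the filter in FGFR1 alone, these reads are a description only. COL9A3 overlaps TCFL5 on the other strand, so its reads may be shared. COL6A1, a chain of the collagen VI beaded filaments, had 94 reads in CDKN2A, 12 in GFP and 12 in FAT1, and it was higher in FGFR1 (1.08, SE 0.30) and PIK3CA (0.93, SE 0.32) than in HCRED. COL6A3, its partner chain, had 25 reads in HCRED and 2 in GFP, 11.3 times as many (95% exact interval 2.82 to 98.6, counting error only), and 0 in FAT1. Of the 2 controls COL6A3 had a mean count above 1 in HCRED alone, so this ratio is a description and no test. COL8A1, a chain of short network collagens, was higher in PIK3CA (1.72, SE 0.40, 54 reads against 14) and FGFR1 (1.502, SE 0.40, 34 reads), and the second missed the threshold with edgeR (adjusted p = 0.0547). Without the 3 libraries that resembled another line, 4 members passed in FGFR1 in place of 7. COL4A6 (adjusted p = 0.61) and COL16A1 (0.0571) no longer did, nor did COL9A2, which is given as a description. Without the 5 libraries with NRG1 reads COL16A1 missed the threshold in FGFR1 as well (adjusted p = 0.142).

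Of the 19 members with a mean count of at most 1, some had more reads in the CDKN2A line than in GFP. Summed over 12 samples, COL6A2, a collagen VI chain, had 23 reads in CDKN2A and 1 in GFP, 21.75 times as many by scaled reads (95% exact interval 3.53 to 896). COL24A1 had 20 and 1 (18.9, interval 3.02 to 784), COL14A1, a FACIT chain, 19 and 1 (18.0, interval 2.86 to 746), COL19A1 13 and 1 (12.3, interval 1.85 to 522) and COL26A1 11 and 1 (10.4, interval 1.51 to 448). These genes were chosen after their reads were seen, so the ratios are a description and no test. The intervals cover counting error only, and at 1 read in the control they are wide. The ratios of COL1A2 and COL13A1 between FAT1 and GFP had intervals that included 1. So did those of COL14A1 between PIK3CA and HCRED and of COL28A1 between NRG1 and HCRED. COL19A1 overlaps LMBRD1 on the other strand.

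**Figure D4:**
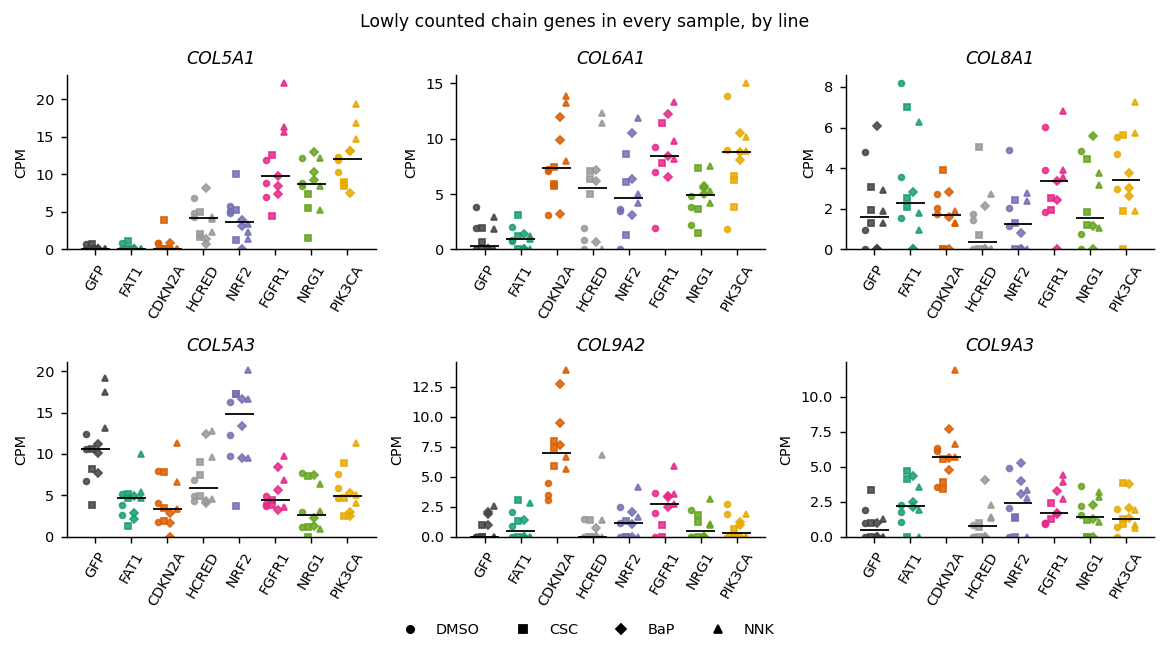
CPM (vertical axes from 0) of 6 lowly counted chain genes in every sample by line, with a marker shape for each treatment and a bar at the median. COL5A1 is near 0 in the GFP, FAT1 and CDKN2A lines, COL9A2 and COL9A3 are highest in CDKN2A, and COL5A3 is highest in NRF2.

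Among FACIT chains with more reads, COL12A1 was higher in the PIK3CA line by 0.51 (SE 0.077, adjusted p = 1.36e-07, medians 92.1 and 59.2 CPM), the FGFR1 line by 0.40 (SE 0.085), the NRG1 line by 0.27 (SE 0.086), the CDKN2A line by 0.41 (SE 0.093) and the FAT1 line by 0.25 (SE 0.096), and lower in the NRF2 line by -0.46 (SE 0.095, median 45.9 CPM). COL16A1 rose by 0.33 in FAT1, 0.22 in CDKN2A, 0.26 in NRF2 and 0.27 in FGFR1, and of these only the value in FGFR1 passed after the GC correction. COL18A1, the source of endostatin, was 12.8 to 32.2 CPM in HCRED, median 24.7. It was higher in NRF2, median 35.9 CPM (0.63, SE 0.13, adjusted p = 7.98e-05), and lower in PIK3CA, median 14.1 (-0.76, SE 0.17, adjusted p = 0.000185), and NRG1, median 15.3 (-0.53, SE 0.17, adjusted p = 0.026). The FAT1 line was lower than GFP by -0.29 (SE 0.12, adjusted p = 0.033). COL18A1 overlaps SLC19A1 and 2 antisense genes on the other strand. COL10A1 (-0.56, SE 0.20) and COL6A6 (-1.14, SE 0.37) were lower in FAT1, and COL6A6 also in CDKN2A (-1.15, SE 0.34). COL10A1 overlaps NT5DC1 on the opposite strand.

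GFP and HCRED are both controls, yet 11 of 23 members tested differed between them (7 higher and 4 lower in GFP, 45.0% of all genes tested). Beside COL5A1 (-2.28, SE 0.40), COL6A1 (-1.69, SE 0.43), COL6A3 (-1.69, SE 0.41) and COL7A1, which were lower in GFP, COL21A1 (1.36, SE 0.33), COL18A1 (0.77, SE 0.13), COL6A6 (0.74, SE 0.32), COL5A3 (0.64, SE 0.23), COL4A4, COL16A1 (0.33, SE 0.089) and COL4A6 (0.28, SE 0.082) were higher. COL5A1, COL6A1 and COL6A3, 3 of the 11, had a mean count above 1 in HCRED alone, so their fold changes are a description. The kind of construct and any difference between the cell populations that received them cannot be told apart in this contrast. The knockout lines were compared with GFP and the overexpression lines with HCRED, so their fold changes have different references. COL6A6 missed the threshold without the HCRED library that resembled another line (adjusted p = 0.125).

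The chemicals were compared with DMSO over the 8 lines, which asks how tobacco-related exposure goes with collagen expression. As counted, 11 of 24 members tested differed with CSC (4 higher, 7 lower, 55.3% of all genes), 12 with BaP (6 higher, 6 lower, 51.4%) and 13 with NNK (11 higher, 2 lower, 52.1%). After the correction for GC content and length 11 differed with CSC (1 higher, 10 lower, 32.4% of all genes), 11 with BaP (1 higher, 10 lower, 23.4%) and 4 with NNK (2 higher, 2 lower, 15.2%). As counted, 1 of the 12 members with BaP (COL2A1) and 2 of the 13 with NNK (COL2A1 and COL6A6) had a mean count above 1 in 1 of the 2 groups alone. Without the 5 libraries with NRG1 reads 9 members differed with BaP, and COL4A4 (adjusted p = 0.0530), COL4A6 (0.106) and COL6A1 (0.0522) no longer did. The DMSO samples are shared by the 3 comparisons. Within single lines, 70 of 541 member tests passed as counted (51 higher, 19 lower, 12.2% of all gene tests) and 48 after the correction (7 higher, 41 lower, 2.85% of all gene tests), so most calls were higher as counted and lower after the correction.

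**Figure D5:**
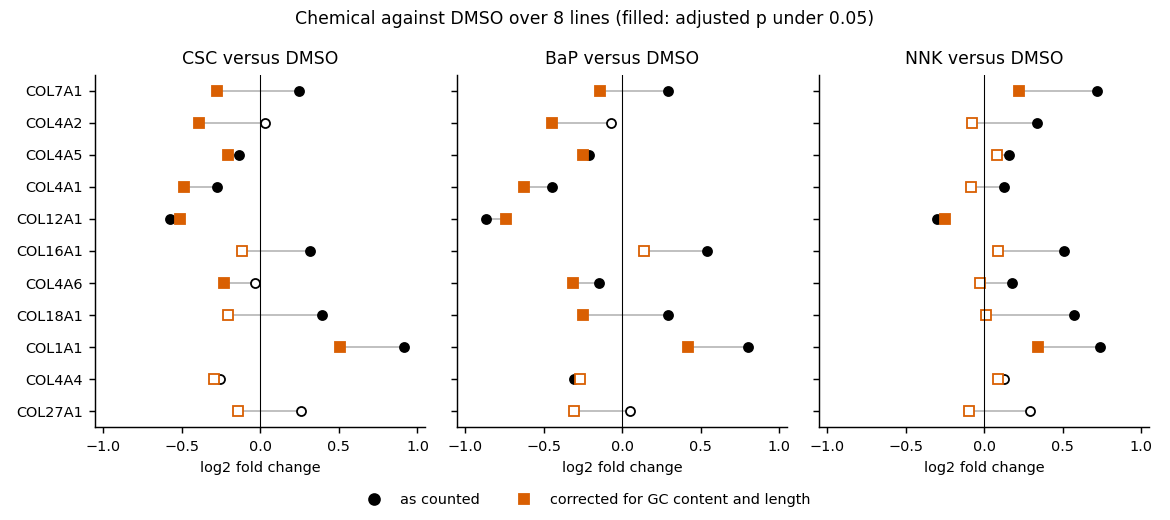
Log2 fold change (horizontal axis) of each chemical against DMSO over 8 lines for the 11 members with a mean count of at least 10, as counted (circles) and after correction for GC content and length (squares), filled where the adjusted p was under 0.05. The squares lie to the left of the circles for most members, COL12A1 stays to the left and COL1A1 to the right of 0 on either scale.

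COL12A1, which coats fibrils and is known for its place in mechanically loaded matrix, fell with every chemical, with or without the correction. Its level was 57.0 to 141 CPM with DMSO, median 96.7, 40.3 to 92.4 with CSC, median 60.8, 28.5 to 83.7 with BaP, median 50.2, and 32.04 to 109 with NNK, median 79.2. The log2 fold change was -0.87 with BaP (SE 0.064, adjusted p = 8.21e-25), -0.57 with CSC (SE 0.059, adjusted p = 4.53e-16) and -0.30 with NNK (SE 0.057, adjusted p = 2.87e-06), and after the correction -0.74, -0.51 and -0.25. All 8 lines had the same sign for each chemical as counted, where BaP passed in all 8, CSC in 5 and NNK in none. In the PIK3CA line the 3 DMSO samples were at 126, 119 and 124 CPM and the 3 BaP samples at 77.0, 66.2 and 83.7, with no overlap. In the NRF2 line, where it was lowest, they were at 76.7, 58.8 and 57.0 and at 30.2, 28.5 and 40.2. COL4A1 fell with CSC (-0.28, SE 0.053) and BaP (-0.45, SE 0.055), and more so after the correction (-0.48 and -0.63). With NNK it rose by 0.13 as counted, and its corrected value was -0.09 (adjusted p = 0.259). COL4A5 fell with CSC (-0.14, SE 0.046) and BaP (-0.21, SE 0.047) on both scales. COL4A2 did not pass with CSC (0.03) or BaP (-0.07) as counted and was lower after the correction (-0.39 and -0.45). The mean log2 ratio of COL4A1 to COL4A2, from the same 20 tests, was -1.04 ± 0.29 (SD, n = 24) with DMSO, -1.34 ± 0.30 (n = 23) with CSC, -1.43 ± 0.29 (n = 24) with BaP and -1.22 ± 0.27 (n = 24) with NNK. The adjusted permutation p was 0.0007 with CSC, 0.0004 with BaP and 0.0171 with NNK, and after the correction it was 0.237, 0.0224 and 0.777. The ratio of COL4A5 to COL4A6 did not pass as counted with any of the 3 (lowest adjusted permutation p 0.326).

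COL1A1 was the member that rose with all 3 chemicals on both scales. It was 4.72 to 34.9 CPM with DMSO, median 16.2, and had medians of 32.05 with CSC, 24.9 with BaP and 29.6 with NNK. The log2 fold change was 0.92 with CSC (SE 0.11, adjusted p = 6.48e-13), 0.80 with BaP (SE 0.11, adjusted p = 5.04e-10) and 0.74 with NNK (SE 0.11, adjusted p = 1.04e-08), and the corrected values were 0.51, 0.42 and 0.34. The sign as counted was the same in 8 of 8 lines for each chemical. Within single lines after the correction, no member, COL1A1 included, passed as higher with CSC outside GFP and NRF2. The same held with BaP outside FAT1, and with NNK outside GFP, CDKN2A, HCRED and FGFR1. In the GFP line the 3 DMSO samples were at 10.6, 12.5 and 14.7 CPM and the 3 CSC samples at 29.0, 31.8 and 52.9, with no overlap. The summed fibroblast markers had medians of 20.5 CPM with DMSO, 26.9 with CSC, 24.5 with BaP and 26.1 with NNK, and their part in the result was not tested.

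For COL7A1, COL16A1 and COL18A1, all above 60% GC in their transcripts, the call depended on the scale. COL7A1 was 299 to 618 CPM with DMSO, median 490, and had medians of 562 with CSC, 568 with BaP and 742 with NNK, where it ranged from 522 to 1120. As counted it rose with CSC (0.25, SE 0.047), BaP (0.29, SE 0.047) and NNK (0.72, SE 0.044, adjusted p = 1.45e-30). After the correction it was lower with CSC (-0.28, adjusted p = 7.59e-11) and BaP (-0.14, adjusted p = 0.00118), and the rise with NNK shrank to 0.22 (adjusted p = 2.22e-07). COL16A1 rose by 0.31, 0.54 and 0.51 and COL18A1 by 0.39, 0.29 and 0.57 as counted, with CSC, BaP and NNK. After the correction neither was higher at the threshold, and COL18A1 passed it as lower with BaP (-0.25). COL4A2 rose with NNK (0.34, SE 0.042), where the corrected value was -0.07 (adjusted p = 0.206).

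Low members also passed. COL6A6, a collagen VI chain of epithelia, fell with BaP (-0.99, SE 0.25) and CSC (-0.85, SE 0.24) on both scales, from a median of 3.38 CPM with DMSO to 1.36 and 1.86. With NNK it had 16 reads in 24 samples against 92 with DMSO, a median of 0.319 CPM. COL21A1 fell with CSC (-1.04, SE 0.26, adjusted p = 0.000358, and -0.91 after the correction), and so did COL5A1 (-0.51, SE 0.20, adjusted p = 0.022, and 0.179 without the 3 libraries that resembled another line) and COL5A2 (-0.42, SE 0.18, adjusted p = 0.041), which missed the threshold after the correction (0.0671) and without those 3 libraries (0.0713). COL2A1 had 33 reads with BaP, 46 with NNK and 23 with DMSO in 24 samples each. COL6A1 (0.64 and 0.94) rose with BaP and NNK, COL9A2 (0.87) and, by 0.16 and 0.18, COL4A5 and COL4A6 rose with NNK, and none of these passed after the correction. With BaP COL4A4 (-0.31) and COL4A6 (-0.15) were lower. After the correction COL4A4 was at -0.27 and missed the threshold (adjusted p = 0.133), and COL4A6 was at -0.31 (adjusted p = 8.86e-06). Without the 3 libraries that resembled another line COL4A6 missed it as counted (adjusted p = 0.0525).

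Whether a chemical acted differently between lines was tested by an interaction of chemical and line. At the adjusted threshold in limma-voom 1 of 24 members differed for CSC, against 0.883% of all genes tested, and none for BaP or NNK, where 3 and 2 members had an unadjusted p under 0.05 in limma-voom. The member was COL7A1 (adjusted p = 0.0072). Its log2 fold change with CSC was 0.63 in HCRED and 0.49 in GFP, 0.36 in PIK3CA, 0.30 in NRG1, 0.19 in CDKN2A, 0.11 in FAT1, 0.06 in NRF2 and -0.10 in FGFR1. In HCRED the CSC samples were at 768, 712 and 754 CPM and the DMSO samples at 486, 540 and 424. In NRF2 they were at 608, 542 and 499 and at 549, 559 and 468, which overlap. After the GC correction the interaction had an adjusted p of 0.135.

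Genes that fold, process, bind or assemble with collagen were taken from 4 lists. Of all genes tested, 57.7% differed in the CDKN2A line, 48.8% in FAT1 and 45.0% between GFP and HCRED. The shares were 21.7% in NRF2, 13.4% in FGFR1, 10.8% in NRG1 and 27.8% in PIK3CA. The counts of each list below stand against these shares, and nothing particular to a list is read from them. Of the 19 genes for chain modification and folding, 13 of 19 tested were higher and 4 lower in the CDKN2A line, and 8 of 17 higher and 2 lower in the FAT1 line, with median log2 fold changes of 0.73 and 0.07 against 0.00 and 0.03 over all genes. In CDKN2A the named genes were FKBP10, a chaperone of procollagen (4.30, SE 0.31), P3H4 of the lysyl hydroxylation complex (1.90, SE 0.18), PLOD2, a lysyl hydroxylase (1.87, SE 0.082), and SERPINH1, the collagen chaperone HSP47 (1.31, SE 0.073). FKBP10 stood apart in GFP, where it had 0 to 8 reads in each of the 12 samples, and it had at least 10 in every sample of the other 7 lines, and GFP was below HCRED by -5.06 (SE 0.30). The FKBP10 values of FAT1 (3.87) and CDKN2A therefore rest on their control. P3H4 was likewise lower in GFP than in HCRED (-1.63, SE 0.18). In the other lines the numbers higher and lower were 0 and 4 of 17 in NRF2, 2 and 2 of 17 in FGFR1, 3 and 0 of 17 in NRG1 and 4 and 2 of 18 in PIK3CA, and GFP had 3 higher and 8 lower of 17 than HCRED. P4HA1, a prolyl hydroxylase subunit, was higher in FAT1 (0.87, SE 0.086).

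Among the 18 genes of secretion, propeptide cleavage and crosslinking, 8 of 16 tested were higher and 2 lower in CDKN2A, 3 of 15 higher and 4 lower in FAT1, 1 and 5 of 16 in NRF2, 4 and 0 in FGFR1, 4 and 1 of 15 in NRG1 and 4 and 2 of 16 in PIK3CA. PXDN, the peroxidasin that crosslinks collagen IV, had 0 to 12 reads a sample in CDKN2A and 24 to 142 in GFP (-3.45, SE 0.22, adjusted p = 2.41e-22), although COL4A1, COL4A2, COL4A5 and COL4A6 were higher there. It was also lower in FAT1 (-1.53, SE 0.12) and NRF2 (-0.78, SE 0.096) and higher in PIK3CA (0.95, SE 0.069) and FGFR1 (0.40, SE 0.079). LOXL1, a lysyl oxidase, was higher in CDKN2A (1.33, SE 0.20) and NRG1 (0.86, SE 0.20).

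Of the 10 collagen receptors 6 or 7 could be tested, and the numbers higher and lower were 3 and 1 in FAT1, 3 and 3 in CDKN2A, 0 and 4 in NRF2, 0 and 2 in FGFR1, 2 and 0 in NRG1 and 0 and 1 in PIK3CA. The integrin chains ITGA1 and ITGA2, which bind collagen, were lower in NRF2 (-0.70, SE 0.16 and -0.67, SE 0.080) and higher in NRG1 (0.42, SE 0.12 and 0.38, SE 0.068). ITGA1 was higher in FAT1 than in GFP (1.36, SE 0.15), and GFP itself was below HCRED (-0.94, SE 0.15). Its medians were 14.3 CPM in GFP, 26.2 in HCRED and 39.9 in FAT1. MRC2, which takes up collagen for degradation, was lower in PIK3CA (-0.72, SE 0.091). Among 11 basement membrane partners the numbers were 5 and 2 of 10 tested in FAT1 and, of 11, 5 and 4 in CDKN2A, 1 and 6 in NRF2, 3 and 5 in FGFR1, 4 and 2 in NRG1 and 3 and 4 in PIK3CA. The laminin chains LAMB3 (-0.74, SE 0.046) and LAMA3 (-0.71, SE 0.042) of the epithelial basement membrane were lower in NRF2. In PIK3CA LAMA5 was lower (-1.25, SE 0.054) and LAMB1 higher (0.82, SE 0.041), and LAMB1 was also higher in FGFR1 and NRG1 (0.42, SE 0.044 and 0.42, SE 0.048).

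The counts of these lists with the chemicals also differed between the scales. The shares of all genes that differed were 55.3%, 51.4% and 52.1% with CSC, BaP and NNK as counted and 32.4%, 23.4% and 15.2% after the correction. Of 17 folding genes tested 11, 11 and 11 were higher and 3, 4 and 4 lower with CSC, BaP and NNK as counted, and 8, 2 and 1 were higher and 1, 3 and 0 lower after the correction. Of 11 basement membrane partners 7, 5 and 5 were higher and 1, 4 and 2 lower as counted, and 0, 0 and 3 higher and 1, 7 and 2 lower after it. Of 16 secretion and crosslinking genes 5, 4 and 4 were higher and 5, 4 and 4 lower as counted, and 2, 2 and 1 higher and 2, 2 and 1 lower after it. Of 6 receptors 3, 2 and 1 were higher and 2, 3 and 2 lower as counted, and 1, 0 and 1 higher and 0, 3 and 0 lower after it. On both scales PLOD3, a lysyl hydroxylase (0.75, SE 0.073), and PXDN (0.55, SE 0.063) were higher with CSC, LOXL1 was higher with BaP (1.08, SE 0.15), and ITGA1 (-0.55, SE 0.088) and ITGB1 (-0.45, SE 0.033), the integrin beta 1 chain, were lower with BaP. LAMA5 (0.78, SE 0.044) and MRC2 (0.76, SE 0.068) were higher with NNK, with corrected values of 0.22 and 0.30.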

How the data were processed

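The authors deposited raw counts per gene, 1 table for each of the 95 samples and 27978 symbols in each. Per the labels and the study's methods, adapters were trimmed with cutadapt 1.12, quality was checked with FastQC 0.11.5, reads were aligned to hg19 with STAR 2.5.2b and counted over RefSeq genes with featureCounts (Subread). Whether counting used strand is not given in the sources used here. Counts were tested with limma-voom (limma 3.58.1, R 4.3.3) with TMM factors (edgeR 4.0.16), on the samples compared only and genes with a mean count above 1, and p-values were adjusted by Benjamini-Hochberg over all genes tested (threshold 0.05). Genotypes were compared with treatment as a term, chemicals with line as a term, and both within single strata. CPM were scaled by TMM over all samples. CPM per kilobase used the length of the Ensembl canonical transcript on hg19, and coordinates are hg19 unless named GRCh38.p14. The alternative corrected each library by loess (span 0.3) of gene deviations on GC content and length. Promoter sequences are from RefSeq (GRCh38.p14), where 31 of 43 members were found. The fits were tested on simulated data. edgeR and DESeq2 1.42.0, other filters, deep libraries only, a replicate block and leaving out samples were the alternatives.

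Members and lists were chosen with earlier results of these data known. Members with a mean count of at least 10 are named with levels and the rest as low with their highest count, every member past the threshold in a pooled comparison is named, and of the other lists at most 6 genes per pooled comparison, those past the threshold with the largest change and a mean count of at least 10. The count ratios, the partner ratios and the leaving out of libraries with NRG1 reads or nearest another line were chosen after seeing the data. Replicate pairs of a group differed beyond counting noise (chi-square per degree of freedom 1.13 to 2.65 over 94 pairs), so none was counted as a duplicate. Depth was 287446 to 2116383 counted reads. Intervals and floors cover counting error only. The values of 1 gene of the basement membrane list are not reported here.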

Additional observations from a re-analysis of the deposited data

Results flagged for a closer look

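The response of COL7A1 to CSC differed between the 8 lines by the interaction test of limma-voom (adjusted p = 0.0072 over all genes tested). The log2 fold change against DMSO was 0.63 in HCRED, 0.49 in GFP, 0.36 in PIK3CA, 0.30 in NRG1, 0.19 in CDKN2A, 0.11 in FAT1, 0.06 in NRF2 and -0.10 in FGFR1, so it was positive in 7 of 8 lines. After the correction for GC content and length the interaction had an adjusted p of 0.135 and the sign was negative in all 8 lines, from -0.55 in FGFR1 to -0.04 in HCRED. Both FGFR1 libraries with CSC and 1 HCRED library with DMSO correlated best with another line, and their part in the result was not tested.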

How the results depend on the processing

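Of 77 genotype and control calls of single members, 71 kept direction and threshold after the GC correction and 6 missed the threshold. None changed sign under any alternative run. The 77 include calls given above as a description, 3 in CDKN2A, 1 in FGFR1 and 3 between GFP and HCRED. Among the chemical calls, 1 with BaP and 2 with NNK had a mean count above 1 in 1 group alone. No support is drawn from these calls. Of 36 chemical calls, 17 held after that correction, 11 missed the threshold and 8 changed sign: COL7A1 (-0.28), COL16A1 (-0.12) and COL18A1 (-0.20) with CSC, COL7A1 (-0.14) and COL18A1 (-0.25) with BaP, and COL4A1 (-0.086), COL4A2 (-0.075) and COL4A6 (-0.025) with NNK. The COL4A1 to COL4A2 ratio with NNK also changed sign (0.022). The cause was not tested. In FGFR1, DESeq2 called 3 members, a mean count of at least 10 gave 4, the GC correction 11, libraries of at least 600000 reads 4, and leaving out the libraries nearest another line 4. A mean count of at least 10, which tests fewer genes, gave 6 between GFP and HCRED, 7 with CSC and 7 with BaP. The GC correction gave 4 with NNK. Testing all genes with at least 1 read gave 22 with BaP and 26 with NNK, and this setting includes members with very few reads. Median counted reads were 1051107 with DMSO, 836087 with BaP and 753702 with NNK. The part of depth in the counts of 22 and 26 was not tested, and nothing about the members is read from them. DESeq2 called 48 within treatments and 40 within lines. Over all genes it called 20332 of 338805 and 13837 of 339337 tests, where limma-voom called 41305 and 41506. Where a count of members in this section stands without a share of all genes, nothing about the members is read from it. For CSC by line the GC correction gave 0.

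Leaving out the samples of 1 number gave 8 to 11 members in FAT1, 2 to 5 in FGFR1, 2 to 5 in NRG1, 0 to 1 for CSC by line and 0 to 1 for BaP by line. Of the genotype and control calls of single members, 22 of 76 missed the threshold without replicate 1, 26 of 76 without replicate 2 and 13 of 77 without replicate 3, 15 of 77 in libraries of at least 600000 reads and 12 of 77 with DESeq2. Of the 36 chemical calls 10, 7 and 5 missed it without replicates 1, 2 and 3, and 6 in libraries of at least 600000 reads.

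The replicate numbers did not pair the samples: the mean correlation of deviations was -0.0439 to 0.138 over the comparisons. With the replicate block the members called were 14 in FAT1, 16 in CDKN2A, 11 in NRF2, 6 in FGFR1, 7 in NRG1, 12 in PIK3CA, 10 between GFP and HCRED, 12 with CSC, 12 with BaP and 13 with NNK, and the sums were 98 within treatments and 80 within lines. Depth limits the 32 members with a mean count under 10, for which 3 reads are 1.47 to 9.84 CPM.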
